A study of Homo sapiens with 6 samples.

Results

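Fibrinogen is the soluble plasma glycoprotein that thrombin converts to fibrin during clotting. Its chain genes FGA, FGB and FGG, together with the related gene FGL1, were followed in Huh7 cells, a human hepatoma line. Members were taken as the rows of the deposited expression table whose Ensembl identifier maps to these symbols, which gave 4 genes of 57905. The table holds FPKM, fragments per kilobase of transcript adjusted for depth, so levels of different genes can be compared per length. Such a comparison depends on the length assigned to each gene, which the sources used here do not give. The cells were measured in 2 groups 72 h after transfection: siControl cells, given a scrambled siRNA, and siASGR1 cells, given an siRNA that targets ASGR1, the major subunit of the hepatic asialoglycoprotein receptor. Each group has 3 libraries of total RNA. All of them come from this single tumour line, and the labels do not say whether the libraries of a group were separate cultures, so p-values measure only how much these samples vary, which may be technical variation.

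Hepatocytes are the main source of plasma fibrinogen. The Aα, Bβ and γ chains, encoded by FGA, FGB and FGG, are joined in the endoplasmic reticulum into a hexamer that holds a pair of each, and synthesis of the Bβ chain has been described as a limiting step of this assembly in hepatoma cells. The chain genes lie side by side, are expressed together in liver and are raised in the acute phase response by interleukin 6 through STAT3 and C/EBP factors. FGL1, also called hepassocin, encodes a secreted liver protein with a fibrinogen-like domain, known as a hepatocyte growth factor and as a ligand of the immune receptor LAG3.

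All members were listed higher in every siASGR1 library than in any siControl library. The chain genes passed the test, FGB with the largest rise, and their FPKM lay closer together in siASGR1 than in siControl. FGL1 was low in both groups, under the level required for the test. The measured RNA is from whole cultures, so more expressing cells and more RNA per cell cannot be told apart. Groups that did not overlap, with siASGR1 higher, were found for 4 of the 4 members, against 23.5% of the 13568 genes that passed the filter on low values (FPKM of at least 1 in at least 3 libraries), which FGL1 did not pass.

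FGB encodes the Bβ chain. Its FPKM were 26.78, 27.21 and 24.61 in siControl and 139.75, 139.57 and 139.18 in siASGR1. The groups were far apart, and the siASGR1 libraries lay within 1.004-fold of each other. The mean rose 5.32-fold, from 26.2 ± 1.39 to 139.5 ± 0.29 (SD, n = 3), and the log2 fold change was 2.37 (SE 0.05, limma adjusted p = 1.12e-06). Every fitted fold change here refers to log2(FPKM + 1) values, which understates low genes. This was the 8th highest log2 fold change of the 13568 tested genes.

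FGA encodes the Aα chain, from which thrombin releases fibrinopeptide A. It was listed at 45.48, 42.25 and 44.51 FPKM in siControl and at 129.74, 129.19 and 126.76 FPKM in siASGR1. Again no siControl library came near the siASGR1 values. The mean rose 2.92-fold, from 44.1 ± 1.66 to 128.6 ± 1.59, with a log2 fold change of 1.52 (SE 0.04, limma adjusted p = 1.75e-06).

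FGG encodes the γ chain, which carries sites for fibrin crosslinking and for platelet binding. Its FPKM were 63.48, 62.63 and 70.98 in siControl and 156.6, 156.84 and 153.62 in siASGR1. Replicate 3 was the highest siControl library for FGG, whereas it was the lowest for FGB. The mean rose 2.37-fold, from 65.7 ± 4.6 to 155.7 ± 1.79, with a log2 fold change of 1.23 (SE 0.05, limma adjusted p = 4.83e-06). FGA and FGG each give rise to more than 1 mRNA form, and the GENCODE v29 annotation lists 3 transcripts for FGA, 7 for FGB and 12 for FGG. The table has 1 value per gene, so forms were not separated for any of the chains.

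Of the 3 members tested, 3 were called higher at an adjusted p under 0.05, against 20.9% of all tested genes called higher. Over all tested genes the median of the log2 fold changes was -0.13, and that of the chain genes was 1.52. Scaling the libraries by median-of-ratios factors raised the median of all genes to 0.03 and the log2 fold changes to 2.57 for FGB, 1.73 for FGA and 1.44 for FGG.

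**Figure D1:**
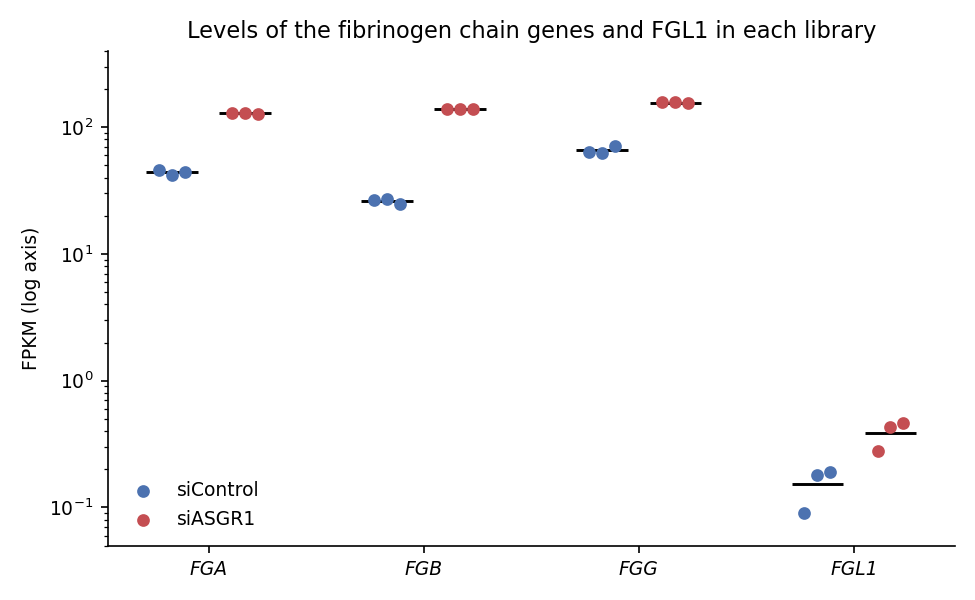
FPKM on a log axis for FGA, FGB, FGG and FGL1 in the 3 siControl and 3 siASGR1 libraries, with each point a library and each bar a group mean. The chain genes move from 24.61 to 70.98 FPKM up to 126.76 to 156.84 FPKM, while FGL1 stays at or under 0.46 FPKM.

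FGG had the highest level of the chain genes in all 6 libraries. In siControl FGA came next and FGB last, and no value of one chain overlapped with another. In siASGR1 the order of the lower chains was turned in FPKM, with FGB above FGA in each of the 3 libraries. This order depends on the length used for each gene. In fragments, rebuilt as described below, FGA stayed above FGB there (about 9608, 9439 and 9647 against 7084, 6980 and 7251). The FGB mean was 39.9% of the FGG mean in siControl and 89.6% in siASGR1, and the FGA mean was 67.1% and 82.6% of it. Among all genes of the table, FGB was ranked 1684 to 1892 by FPKM in siControl and 246 to 263 in siASGR1. FGA moved from ranks 907 to 988 to ranks 278 to 293, and FGG from 531 to 620 to 203 to 231.

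The summed FPKM of the chains was 3.12-fold higher in siASGR1, at 136.0 ± 4.01 against 423.8 ± 3.64. As a share of all FPKM in a library this was 0.0433% ± 0.0011 in siControl and 0.136% ± 0.0019 in siASGR1. FGB made up 19.7%, 20.6% and 17.6% of the chain sum in the siControl libraries and 32.8%, 32.8% and 33.2% in siASGR1. FGG made up 46.8%, 47.4% and 50.7% and then 36.8%, 36.9% and 36.6%. The FGA share moved least, from 32.4% ± 0.95 to 30.3% ± 0.12. FGB therefore took a larger share of the sum, and FGG a smaller one.

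Ratios within a library do not depend on how libraries are scaled, so they compare the rises of the members directly. The FGB to FGA ratio was 0.589, 0.644 and 0.553 in siControl and 1.08, 1.08 and 1.10 in siASGR1. It was 1.83-fold higher, a log2 difference of 0.87 (SE 0.06). The FGB to FGG ratio was 0.422, 0.434 and 0.347 in siControl and 0.892, 0.89 and 0.906 in siASGR1, 2.25-fold higher (log2 difference 1.17, SE 0.10). The FGG to FGA ratio was lower, at 1.4, 1.48 and 1.59 against 1.21, 1.21 and 1.21 (log2 difference -0.30, SE 0.06). The groups did not overlap for any of these 3 ratios, and each gave p = 0.10 in a two-sided exact permutation test, the smallest p that 3 libraries against 3 allow. Adjusted over the 6 ratios among the members, each p was 0.15. The highest chain exceeded the lowest by 2.52-fold ± 0.32 in siControl and by 1.21-fold ± 0.0036 in siASGR1. How close the chains lie depends on the length used for each gene, whereas the change of a ratio between groups does not.

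**Figure D2:**
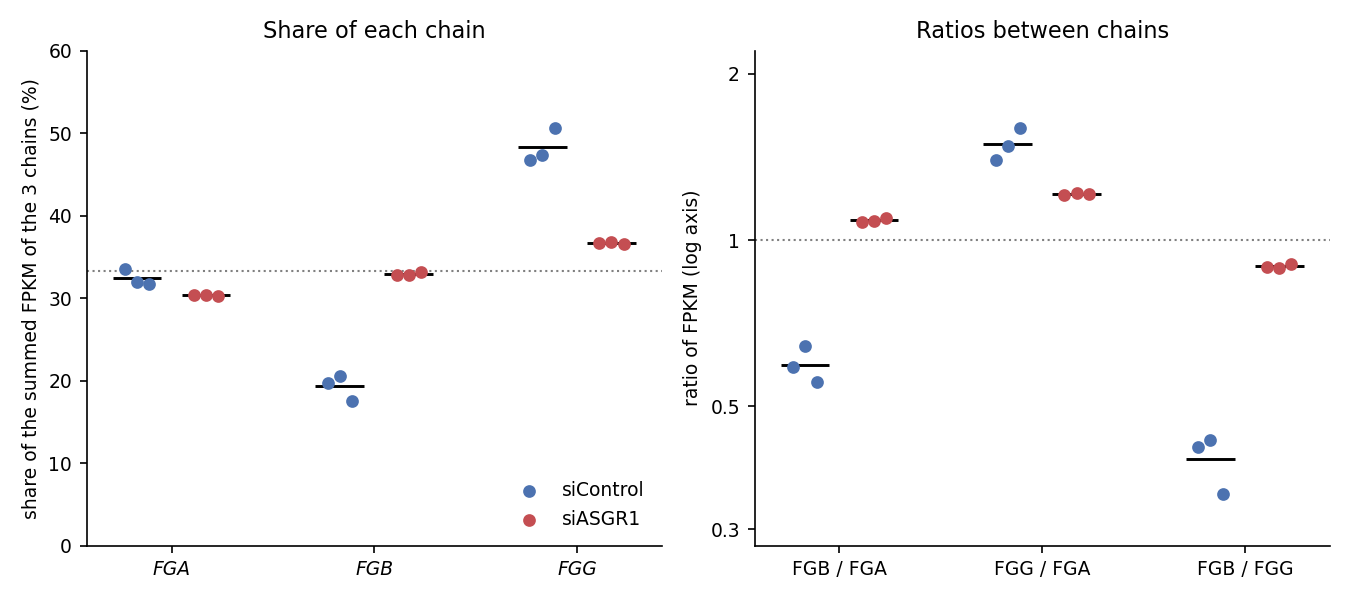
Left, the share of each chain in the summed FPKM of the 3 chains (%), with a dotted line at equal shares; right, ratios between chains on a log axis, with a dotted line at 1. Points are libraries and bars are group means. The FGB share goes from 17.6% to 20.6% up to 32.8% to 33.2%. Each FPKM ratio lies nearer to 1 in siASGR1, which depends on the length used for each gene.

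The spread of each chain between libraries was set beside that of all tested genes. The coefficient of variation in siControl was 3.76% for FGA, 5.32% for FGB and 6.99% for FGG, beside a median of 6.80% over all tested genes. In siASGR1 it was 1.23%, 0.209% and 1.15%, beside a median of 6.70%. Rebuilt from the depth of the libraries, the values rest on about 1087 to 4413 fragments per chain and library in siControl and 6980 to 10639 in siASGR1. Counting that many fragments gives a coefficient of variation of 1.81% for FGA, 2.84% for FGB and 1.56% for FGG in siControl, and the spread there was above each of these. In siASGR1 counting gives 1.02%, 1.19% and 0.974%, and the spread was below it for FGB and above it for FGA and FGG.

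The start regions of the chain genes are shown because the genes moved together but to different extents. Each sequence is the 250 bases before the transcription start from RefSeq on GRCh38.p14, written 5′ to 3′ on the strand of the gene. FGB is chr4:154562761-154563010 (plus strand), FGA is chr4:154590743-154590992 (minus strand) and FGG is chr4:154612657-154612906 (minus strand). RefSeq gives FGB 2 starts, 31 bases apart, and the downstream one was used. Capitals mark matches to the motifs named after the sequences.
FGB: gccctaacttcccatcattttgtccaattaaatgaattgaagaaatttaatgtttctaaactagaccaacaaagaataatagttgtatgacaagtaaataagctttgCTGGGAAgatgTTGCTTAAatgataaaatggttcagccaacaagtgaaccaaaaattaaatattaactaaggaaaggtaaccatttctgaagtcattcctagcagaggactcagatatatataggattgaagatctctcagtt
FGA: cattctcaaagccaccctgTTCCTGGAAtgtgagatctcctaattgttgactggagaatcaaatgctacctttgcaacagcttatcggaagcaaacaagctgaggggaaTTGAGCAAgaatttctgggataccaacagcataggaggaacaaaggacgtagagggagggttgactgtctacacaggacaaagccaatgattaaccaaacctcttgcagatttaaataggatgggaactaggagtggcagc
FGG: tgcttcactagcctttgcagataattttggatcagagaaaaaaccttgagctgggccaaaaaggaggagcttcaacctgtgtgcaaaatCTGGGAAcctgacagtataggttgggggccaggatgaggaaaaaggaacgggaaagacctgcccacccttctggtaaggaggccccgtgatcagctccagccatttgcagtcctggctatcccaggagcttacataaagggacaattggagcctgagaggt

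Exact matches on either strand were sought for 6 motifs, and a match is a description of letters, not a binding site. CTGGGAA, the core of the interleukin 6 response element, was found in FGB (bases 143 to 137 before the start) and in FGG (161 to 155), and in 9.16% of 34943 promoters of this length. FGA holds CTGGGAT, which differs in the last base only and was not counted as a match. The palindromic STAT motif TTCNNNGAA was found in FGA (231 to 223) and in 6.56% of promoters. TTGCNNAA, a C/EBP motif, was found in FGB (132 to 125) and FGA (141 to 134), and in 9.06% of promoters. In FGB the C/EBP match starts a few bases after the response element core, without overlap. The TATA box letters TATAAA were not in these windows and occur in 10.8% of promoters. The same held for AGGTCA, a nuclear receptor half-site found in 12.1% of promoters, and for the E-box CACGTG of USF factors, found in 6.32%. G and C made up 32% of the FGB window, 45.2% of FGA and 50.8% of FGG, beside a median of 58% over all promoters.

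The chain genes span 50 kb of chromosome 4 (154562956 to 154612967 in GENCODE v29 on GRCh38; the deposited table has no coordinates). FGB (154562956 to 154571086) is on the plus strand, and FGA (154583126 to 154590766) and FGG (154604134 to 154612967) are on the minus strand. Gaps of 12 kb and 13.4 kb separate them. Of the 40 other genes of the table within 1 Mb of the cluster, 10 are protein coding and 2 passed the filter on low values. The nearest protein-coding neighbour on one side, 12.5 kb from FGB, is PLRG1, which encodes a spliceosome protein. PLRG1 was listed at 9.45, 8.74 and 8.34 FPKM in siControl and at 11.47, 10.18 and 11.5 in siASGR1. It rose 1.25-fold (log2 fold change 0.29, limma adjusted p = 0.00693), beside 5.32-fold for FGB. On the other side the nearest, 14 kb from FGG, is LRAT, the gene of lecithin retinol acyltransferase, listed at 0.01, 0 and 0.03 FPKM in siControl and at 0 in all 3 siASGR1 libraries. DCHS2, a cadherin gene 67.4 kb away, was listed at 0.29, 0.33 and 0.33 FPKM and then at 0.59, 0.35 and 0.5. Of 17 listed neighbours, some beyond this window, 4 were tested and PLRG1 alone was called, beside 20.9% of all genes called higher. This count was 2 with upper-quartile scaling and without siASGR1 replicate 1 or siASGR1 replicate 2, 3 with median-of-ratios scaling and 4 with quantile normalization, all higher.

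**Figure D3:**
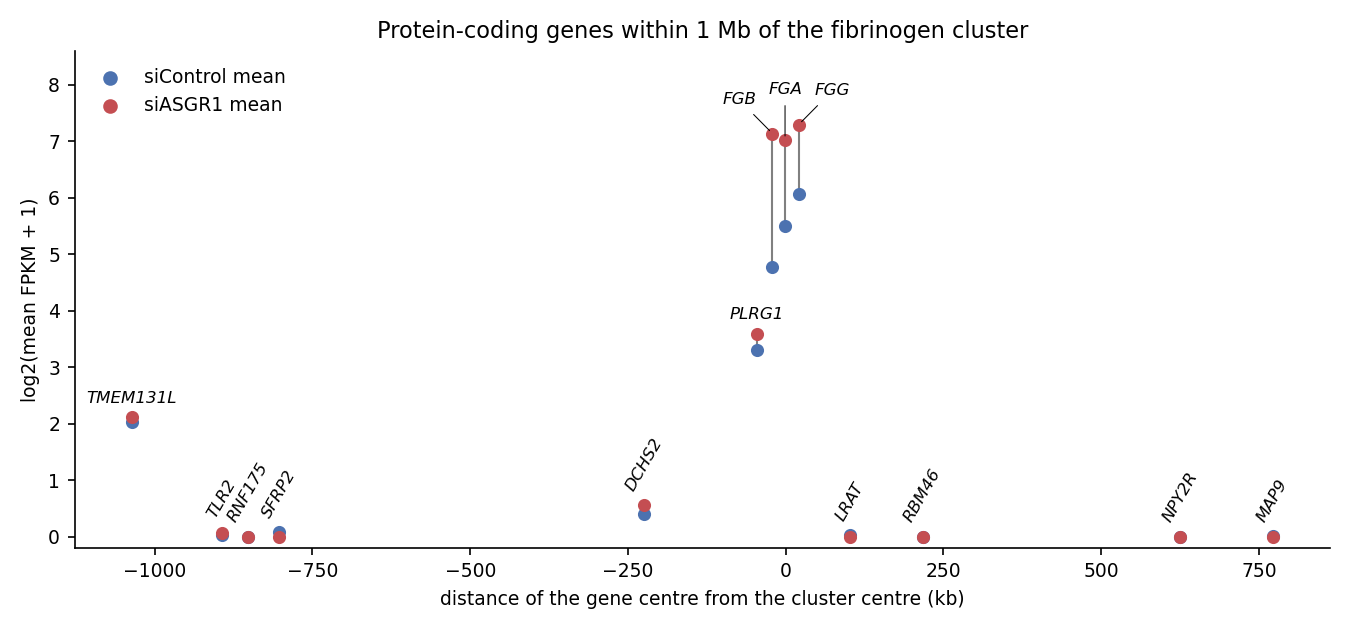
Mean level, log2(FPKM + 1), of each protein-coding gene within 1 Mb of the fibrinogen cluster, plotted by the distance of its centre from the cluster centre (kb); grey lines join the siControl and siASGR1 means of a gene. FGB, FGA and FGG are the high genes of the window, and PLRG1, 12.5 kb from FGB, moves by 0.29.

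FGL1 (ENSG00000104760) lies elsewhere in the genome, at 17864380 to 17910365 on the minus strand of chromosome 8 in GENCODE v29 on GRCh38. It was listed at 0.09, 0.18 and 0.19 FPKM in siControl and at 0.28, 0.43 and 0.46 FPKM in siASGR1. The groups did not overlap, but the lowest siASGR1 library lay close to the highest siControl library. These values correspond to about 6, 10 and 10 fragments in siControl and 17, 26 and 29 in siASGR1, where a count of 0 would allow up to 0.047 to 0.056 FPKM. The mean was 0.153 ± 0.055 and 0.39 ± 0.096, 2.54-fold higher in siASGR1. The difference on the log2(FPKM + 1) scale was 0.27 (two-sided exact permutation p = 0.10, the smallest possible). With no filter on low values, limma gave an unadjusted p = 0.015 and an adjusted p = 0.0567 over 33948 genes, so FGL1 was not called. Its level was 0.233% of the FGG level in siControl and 0.25% in siASGR1. Antisense genes overlap FGL1, and the strand setting of the authors' counting is not given in the sources used here, so reads of either strand cannot be told apart. Of the overlapping genes, AC087273.1 was listed at 0 in all libraries. AC087273.2 was listed at 0, 0 and 0.1 FPKM in siControl and at 0.17, 0 and 0 in siASGR1.

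The FGL1 to FGG ratio differed by less than its error between the groups (log2 difference 0.14, SE 0.40, exact permutation p = 0.60, adjusted 0.60). The same held for FGL1 to FGA (-0.16, SE 0.44, exact permutation p = 0.60, adjusted 0.60). The FGL1 to FGB ratio was lower in every siASGR1 library, with a log2 difference of -1.02 (SE 0.43, exact permutation p = 0.10, adjusted 0.15). The groups nearly met, at 0.00336 for the lowest siControl library and 0.00331 for the highest siASGR1 library. At about 26 fragments in all siControl libraries together and 73 in siASGR1, the depth cannot show whether the rise of FGL1 differed from those of FGA and FGG. The FGL1 to FGB ratio rests on the same few fragments. Around FGL1, 10 other genes within 1 Mb were tested, of which 2 rose and 2 fell (20.9% and 40.4% over all genes). The split was 5 and 1 with median-of-ratios scaling. SLC7A2, a cationic amino acid transporter gene, rose 2.37-fold and PCM1, a centriolar satellite gene 12.5 kb from FGL1, 1.34-fold. NAT2, an arylamine acetyltransferase gene, was 2.06-fold lower and ASAH1, the acid ceramidase gene, 1.25-fold lower, a call lost with median-of-ratios scaling (limma adjusted p = 0.108). The call of NAT2 was lost with quantile normalization (limma adjusted p = 0.0605).

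The regulators known to act on fibrinogen genes went both ways. Of 19 listed genes found in the table, 16 were tested, of which 3 rose and 5 fell, with a median log2 fold change of -0.03 (20.9% higher and 40.4% lower over all genes). With median-of-ratios scaling 7 were called higher and 5 lower. CEBPD, an acute phase transcription factor gene, was listed at 5.22, 5.71 and 5.65 FPKM in siControl and at 27.66, 31.6 and 27.75 in siASGR1. It rose 5.25-fold (log2 fold change 2.2, limma adjusted p = 2.03e-06). CEBPB, its relative, fell from 36.5 ± 2.88 to 23.5 ± 2.34 FPKM. CEBPA was 9.50 ± 1.83 and 9.67 ± 1.46 FPKM (limma adjusted p = 0.873), with a sign that turned when single libraries were left out.

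HNF4A, a nuclear receptor gene of hepatocytes, was listed at 30.12, 31.71 and 27.89 FPKM and then at 67.8, 68.16 and 67.94, a 2.27-fold rise (limma adjusted p = 5.09e-06). FOXA2 and PPARA were 1.81-fold and 1.52-fold lower. NR3C1, the glucocorticoid receptor gene, was 3.51 ± 0.49 and 3.01 ± 0.32 FPKM (limma adjusted p = 0.19), with the opposite sign after quantile normalization (0.01).

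Along the interleukin 6 pathway, the receptor gene IL6R rose from 1.63 ± 0.093 to 2.34 ± 0.14 FPKM. The shared signalling subunit gene IL6ST fell from 17.4 ± 0.64 to 12.3 ± 1.06 FPKM, and STAT3, the transcription factor downstream, fell from 13.6 ± 0.27 to 9.67 ± 0.22. IL6 itself was listed at 0.1, 0.04 and 0 FPKM in siControl and at 0.02, 0 and 0 in siASGR1. SOCS3, a STAT3 target and feedback inhibitor, chosen after its value was seen, was 1.21 ± 0.34 and 1.08 ± 0.12 FPKM (limma adjusted p = 0.646).

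Among acute phase proteins of the type that interleukin 6 raises, 13 of 18 were tested, of which 9 rose and 2 fell (median log2 fold change 0.52), beside 20.9% and 40.4% of all tested genes. HP, the haptoglobin gene, was listed at 0.22, 0.24 and 0.24 FPKM in siControl and at 2.75, 2.26 and 2.16 in siASGR1, a 10.2-fold rise. HP passed the filter on low values only through siASGR1, the group where it was higher. SERPINA1, which encodes α1-antitrypsin, rose 2.11-fold, ORM2, an orosomucoid gene, 2.30-fold, and AGT, the angiotensinogen gene, 1.55-fold. ORM2 has a near-identical neighbour, ORM1, so its value is uncertain. The serum amyloid genes moved the other way: SAA1 was listed at 5.68, 4.51 and 3.84 FPKM and then at 1.4, 1.06 and 0.81, and SAA2 was 1.63-fold lower. These genes too are near copies of each other, and the call of SAA2 was lost with quantile normalization (limma adjusted p = 0.0668). CRP, the C-reactive protein gene, chosen after its value was seen, had a mean of 0.017 FPKM in siControl and was listed at 0 in all siASGR1 libraries.

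Genes that fold secreted proteins in the endoplasmic reticulum and carry them out were all tested: 11 of 20 rose and 5 fell (median 0.22; 20.9% and 40.4% over all genes), against 13 and 3 with median-of-ratios scaling and 11 and 8 with quantile normalization. The lectin chaperone gene CALR rose from 304.4 ± 3.81 to 648.6 ± 28.8 FPKM. HSPA5, the BiP chaperone gene, rose 1.86-fold, PDIA4, a disulfide isomerase gene, 1.65-fold, and HSP90B1, the GRP94 chaperone gene, 1.52-fold. Genes that were lower included the COPII coat genes SAR1B (1.67-fold) and SEC24A (1.44-fold), the oxidase gene ERO1B (2.21-fold) and the translocon-associated gene SSR1 (1.26-fold). The call of SSR1 was lost with median-of-ratios scaling (limma adjusted p = 0.0636).

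Of the genes that make thrombin, restrain it or crosslink fibrin, 12 of 18 were tested, of which 8 rose and 0 fell (median 0.61), beside the same 20.9% and 40.4%. With limma 0 of them were lower at an unadjusted p under 0.05 as well. SERPIND1, the heparin cofactor gene, rose 2.93-fold, SERPINC1, the antithrombin gene, 2.23-fold, and PROC, the protein C gene, 1.95-fold. F2, the prothrombin gene, rose from 116.7 ± 6.97 to 190.3 ± 6.66 FPKM. The factor XIII genes F13A1 and F13B, chosen after their values were seen, had means of at most 0.253 FPKM. In the fibrin breakdown list 8 of 13 genes were tested, of which 4 rose and 2 fell (median 0.15; 20.9% and 40.4% over all genes), against 4 and 4 with quantile normalization. CPB2, a carboxypeptidase gene that slows fibrin breakdown, rose 2.97-fold, and the inhibitor gene SERPINF2 (α2-antiplasmin) rose 1.71-fold. A2M, a broad protease inhibitor gene that is also in the acute phase list, rose 1.26-fold. PLAU, the urokinase gene, and its receptor gene PLAUR were 2.24-fold and 3.88-fold lower.

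Receptors of fibrinogen and FGL1 were mostly under the filter, with 4 of 12 tested and 3 called higher, beside 20.9% of all tested genes: ICAM1 (1.48-fold), ITGAV (1.35-fold) and ITGB1 (1.17-fold). The call of ITGB1 was lost with quantile normalization (limma adjusted p = 0.171). LAG3, the receptor of FGL1 on T cells, was listed at 0.39, 0.27 and 0.36 FPKM and then at 0.72, 0.66 and 0.54. ITGA2B, a subunit gene of the platelet fibrinogen receptor, chosen after its values were seen, was listed at 0.44, 0.48 and 0.51 FPKM and then at 0.17, 0.12 and 0.27. The groups did not overlap for either gene, LAG3 being higher and ITGA2B lower in siASGR1, and neither was tested. Of 20 other genes with a fibrinogen-like domain, 3 were tested. Among these 1 was called higher and 2 lower, beside 20.9% and 40.4% of all tested genes. The matrix genes TNXB and MFAP4 were 10.3-fold and 3.25-fold lower. FGL2, a fibrinogen-like gene of immune and endothelial cells chosen after its value was seen, had a mean of 0.05 FPKM in both groups.

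**Figure D4:**
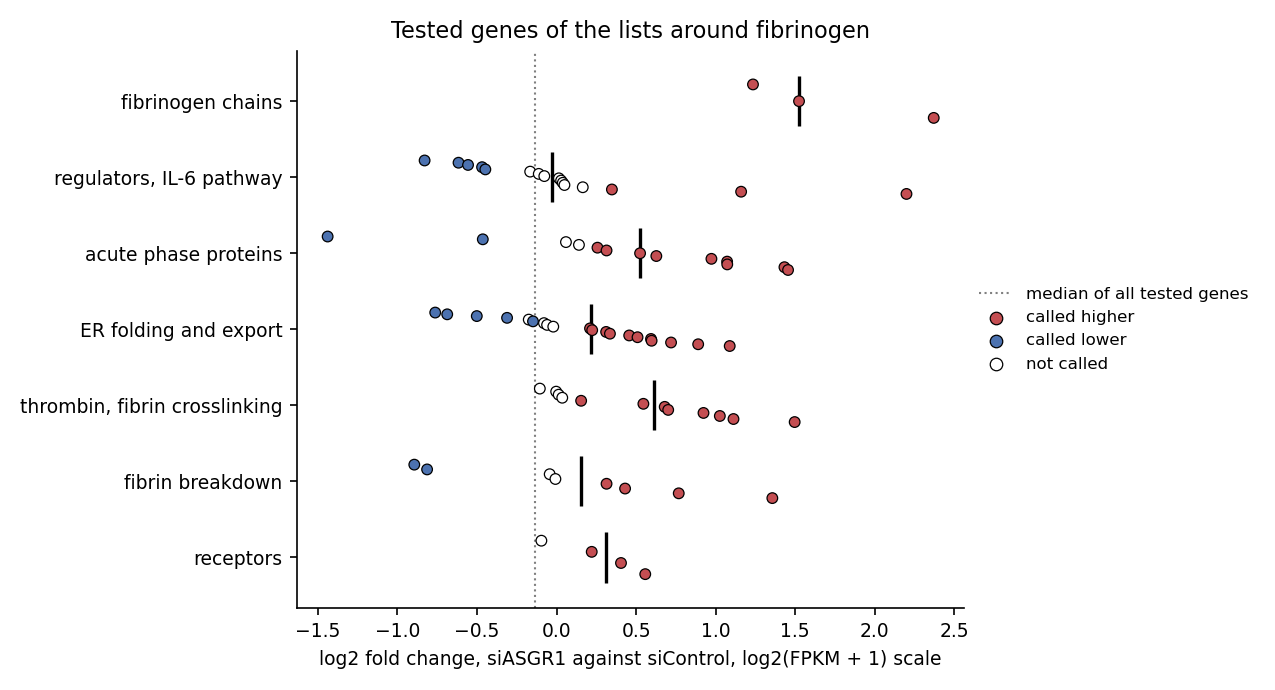
Log2 fold changes of the tested genes in the lists around fibrinogen (siASGR1 against siControl, log2(FPKM + 1) scale), coloured by call, with a black bar at each list's median and a dotted line at the median of all tested genes (-0.13). The 3 chain genes lie from 1.23 to 2.37, and the list of regulators has CEBPD at 2.2 and 5 genes called lower.

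The genes most like each member were sought among 12391 tested genes with a symbol, by the distance between log2(FPKM + 1) values centred on their mean over the 6 libraries. With only 6 libraries in 2 groups, such a distance mostly reads the size of the difference between groups on this scale. The added 1 shrinks the difference of a low gene, so near genes need not have risen by the same fold. FGA was nearest to MBL2 (distance 0.11), ANXA4 (0.12), IGSF1 (0.13), PFKL (0.14) and LIF (0.14). FGB was nearest to NPPB (0.16), ARG1 (0.22), H2AC6 (0.24), H2BC5 (0.24) and SREBF1 (0.30). FGG was nearest to OLMALINC (0.064), HSP90AA1 (0.079), HSPD1 (0.084), NQO1 (0.094) and MCCC2 (0.11). Of these, MBL2 encodes mannose-binding lectin of the liver, ARG1 encodes arginase, SREBF1 encodes a transcription factor of lipid synthesis, and HSP90AA1 and HSPD1 encode chaperones. The chains were not each other's nearest genes: FGG was 77th from FGA (0.38) and FGA was 52nd from FGB (1.05). FGL1, with its small values, was nearest to ZKSCAN2 (0.084), ARHGEF25 (0.089), MIR621 (0.091), WWP2 (0.095) and ACOX3 (0.097). The value of MIR621 is uncertain, since few fragments over a short gene give a high FPKM. In FPKM, MBL2 rose 5.60-fold beside 2.92-fold for FGA, and NPPB 8.28-fold beside 5.32-fold for FGB. ZKSCAN2 rose 1.26-fold beside 2.54-fold for FGL1, whereas OLMALINC rose 2.35-fold beside 2.37-fold for FGG. MBL2 passed the filter on low values only through siASGR1.

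As to the libraries as a whole, the siRNA target ASGR1 was 17.3 ± 0.38 FPKM in siControl and 4.71 ± 0.11 in siASGR1 in the table of the whole series, but 14.8 ± 0.90 in the siASGR1 libraries' own files. ASGR1 was the only gene of the table that differed between these sources, and the values of all 4 members were the same in both. Depth was 16310000 to 19311000 fragments in siControl and 18469000 to 19238000 in siASGR1. Of 13568 genes, 2839 were called higher and 5480 lower, against 4528 and 3494 with median-of-ratios scaling. Hepatocyte markers were present in every library. By limma 13 of 15 rose and 0 fell, beside 20.9% and 40.4% of all tested genes. At an unadjusted limma p under 0.05, 0 were lower as well, and 1 was called lower with quantile normalization. The smallest p were those of APOB (7.30-fold), APOA2 (3.33-fold), ASGR2 (2.26-fold) and HNF4A (2.27-fold). The list of 10 fibroblast and stellate cell markers summed to 9.75 to 10.6 FPKM in siControl and 1.98 to 2.50 in siASGR1. The 3 tested (COL1A1, COL1A2 and TAGLN) fell, beside 40.4% of all tested genes called lower. COL1A1 and COL1A2 passed the filter only through siControl, with means of 2.46 and 1.51 FPKM there against 0.027 and 0.02 in siASGR1. Endothelial markers summed to at most 0.42 FPKM, with 4 of 7 at 0 throughout. Of the blood and immune markers LYZ, a secreted lysozyme gene, rose 1.63-fold, whereas PTPRC, the defining marker of blood cells, had a mean of 0.0033 FPKM in each group. Cholangiocyte markers summed to 44.5 to 46.0 FPKM and 42.3 to 44.3, with KRT19 1.78-fold lower and SOX9 1.15-fold higher. The part of these marker differences in the values of the chain genes was not tested.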

How the data were processed

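RNA of 6 Huh7 libraries was sequenced. Per the submitters' processing notes, the authors' tools included HISAT2 2.0.1, cutadapt 1.9.1 and bcl2fastq 2.17.1.14, and the build named is hg19. For the program that counted fragments, its annotation and its strand setting, the sources used here give no name. Deposited values are FPKM per gene, rounded by the authors, with no counts beside them. Fragment numbers were rebuilt from the steps of low FPKM and GENCODE v29 exon lengths: with the depth found, 94.5% to 95.3% of low values fell within 0.02 reads, beyond rounding, of a whole number (15.4% to 16.3% by chance), so they are approximate.

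Here genes that reached 1 FPKM in 3 or more libraries were kept, and their log2(FPKM + 1) was fitted with limma 3.58.1 (R 4.3.3) with a mean trend, over all 13568 genes, with Benjamini-Hochberg adjustment and a threshold of 0.05. The fit was tested on simulated data. FGL1 and the ratios were compared by exact permutation tests that enumerate every split of the libraries (Python 3.11.15). Symbols matched 68.3% of 57905 identifiers. The members and gene lists were chosen with earlier results of these data known. Named were the members, the siRNA target, listed regulators and cluster neighbours whatever their values, up to 4 called members per further list and direction by smallest p, and the 5 genes nearest to each member; some genes under this rule are not reported here. Alternatives were other scalings, pseudocounts and filters, no trend, a replicate block, the libraries' own files and leaving out each library.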

Additional observations from a re-analysis of the deposited data

How the results depend on the processing

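Of 171 recomputed values for the members, ratios and counts, 161 kept their direction and their side of the threshold or moved little, and 10 did not. The log2 fold changes stayed between 1.43 and 1.73 for FGA, 2.31 and 2.57 for FGB and 1.15 and 1.44 for FGG under all alternatives run, and leaving out single libraries gave 1.49 to 1.55, 2.33 to 2.40 and 1.2 to 1.29. FGL1 was 0.957 with a pseudocount of 0.1 and 0.228 to 0.326 without single libraries. Genes called higher numbered 4528 with median-of-ratios scaling, and genes called lower 3494 with that scaling and 3382 with a filter of FPKM of at least 5. Without single libraries, 7445 to 7908 genes were called, 2495 to 2757 higher and 4950 to 5151 lower, and 77 to 80 genes of the lists. The share of higher calls was 34.1% as reported, 56.4% with median-of-ratios scaling, 42.0% with upper-quartile scaling and 49.2% with quantile normalization.

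The sign of the FGL1 to FGA ratio turned without siControl replicate 2 (0.029), siControl replicate 3 (0.030) and siASGR1 replicate 1 (0.074), with a range of -0.52 to 0.07 without single libraries. That of FGL1 to FGG turned without siControl replicate 1 (-0.18) and siASGR1 replicate 3 (-0.0024), with a range of -0.18 to 0.37 without single libraries, and was -0.97 as a ratio of FPKM + 1. As a ratio of FPKM + 1, FGL1 to FGA was -1.26 and FGL1 to FGB -2.10, where the added 1 exceeds every FGL1 value. Without single libraries the other log2 ratios ranged from 0.817 to 0.927 (FGB to FGA), -0.344 to -0.248 (FGG to FGA), 1.07 to 1.23 (FGB to FGG) and -1.39 to -0.787 (FGL1 to FGB). CEBPA was -0.10 without siControl replicate 3 and -0.08 without siASGR1 replicate 3 (range -0.10 to 0.15 without single libraries), and NR3C1 was 0.01 with quantile normalization. The cause was not tested. Of 1077 values for 73 named genes, 7 lost and 12 gained a call.

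With the replicate number as a block, 8064 genes were called and the limma adjusted p was 9.57e-05 for FGA and FGB and 0.000161 for FGG. Same-numbered libraries had correlations of deviations of -0.019, 0.002 and 0.012 over all tested genes, and not every library correlated best with its own number. These values showed no pairing by number, but a weak shared effect, or one in few genes, would not be seen this way. Among the named genes the block changed the call of WWP2 alone (limma adjusted p = 0.0488).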
